A study of Mus musculus with 8 samples.

Results

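The NF-kB genes described here are 10 of the 23478 genes in a table of RNA-seq counts from mouse breast cancer cells. They were chosen by symbol for what their proteins do, not by a measured value, though with earlier results of these data known. The first 5 encode the DNA-binding subunits (Nfkb1, Nfkb2, Rel, Rela and Relb), 3 encode feedback inhibitors (Nfkbia, Nfkbie and Tnfaip3), and 2 encode regulators of the pathway (Birc3 and Bcl3). All 10 were in the table and passed the filter on low counts. The 8 libraries fell into 4 groups of 2 biological replicates per the labels. Disseminated cancer cells (DCC), which came from the bone marrow of mice with spontaneously metastasizing breast cancer, were either treated with IFN-gamma (DCC IFN-gamma) or kept as a control (DCC control). TUBO is a single mouse breast cancer cell line, known to derive from a mammary tumour of a BALB-neuT mouse, and the early lesion group held cancer cells of an early mammary tumour lesion, with neuT in their titles, the name of an activated rat Erbb2 transgene. Every library carries the genotype label WT, and standard culture is given for all. The sources used here do not give the dose or duration of IFN-gamma or the animals behind each replicate. The p-values therefore measure only the spread between these libraries, which may be technical.

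NF-kB proteins bind DNA as dimers and are held in the cytoplasm by inhibitors of the IkB family. In the canonical pathway, receptors such as those for TNF and interleukin 1 activate the IKK kinase complex, which marks IkB proteins for destruction and frees dimers that contain Rela or Rel. In the non-canonical pathway, the kinase encoded by Map3k14 drives the processing of the Nfkb2 product, which then works with Relb. Active NF-kB raises transcription of its own inhibitors, among them Nfkbia and Tnfaip3, and this closes a negative feedback loop. In the mammary gland, signals from the receptor RANK, encoded by Tnfrsf11a, reach this pathway. IFN-gamma signals through a receptor and factors of its own, and some promoters respond to both pathways.

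Between 15432210 and 30168475 reads were counted on genes per library, and levels are given as CPM, counts scaled to a common TMM-adjusted library size. A count of 3 stood for 0.0953 to 0.183 CPM. Reads outside genes made up 63.7% and 57.2% of all reads counted in DCC control replicate 1 and early lesion replicate 2, against 35.2% to 45.1% in the other libraries. The libraries labelled DCC had almost no epithelial marker RNA. The summed level of 16 epithelial markers was 0.477 and 0.709 CPM in DCC IFN-gamma, 7.49 to 11.1 CPM in DCC control, 6818 to 7329 CPM in TUBO and 4269 to 4528 CPM in early lesion. Epcam, which defines epithelial cells, was at 0 in both DCC IFN-gamma libraries and at 0 and 0.158 CPM in DCC control, against 1034 and 1089 CPM in TUBO and 836 and 794 CPM in early lesion. The DCC are therefore called here by their label alone. In such bulk samples, fewer cells of a type and less RNA per cell cannot be told apart.

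All 3 inhibitor genes rose with IFN-gamma, by more than any of the other 7, and 4 of the 5 subunit genes rose by less, of which Nfkb2 alone kept its call in every alternative run. Of the 10 genes, 8 rose in DCC IFN-gamma over DCC control and 0 fell by edgeR's quasi-likelihood test, at an adjusted p under 0.05. For comparison, 12.6% of the 17069 genes tested rose and 8.83% fell. At an unadjusted p under 0.05, 9 of the NF-kB genes were higher and 0 were lower, and DESeq2 called the same numbers, 9 and 0. The median log2 fold change was 1.13 over the 10 genes and -0.20 over all genes tested. Both DCC IFN-gamma libraries lay above both DCC control libraries for 9 genes, as they did for 28.3% of all genes tested. They lay above all 6 untreated libraries for 7 genes (Nfkb2, Rel, Relb, Nfkbia, Nfkbie, Tnfaip3 and Birc3), as they did for 15.1% of all genes tested.

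**Figure D1:**
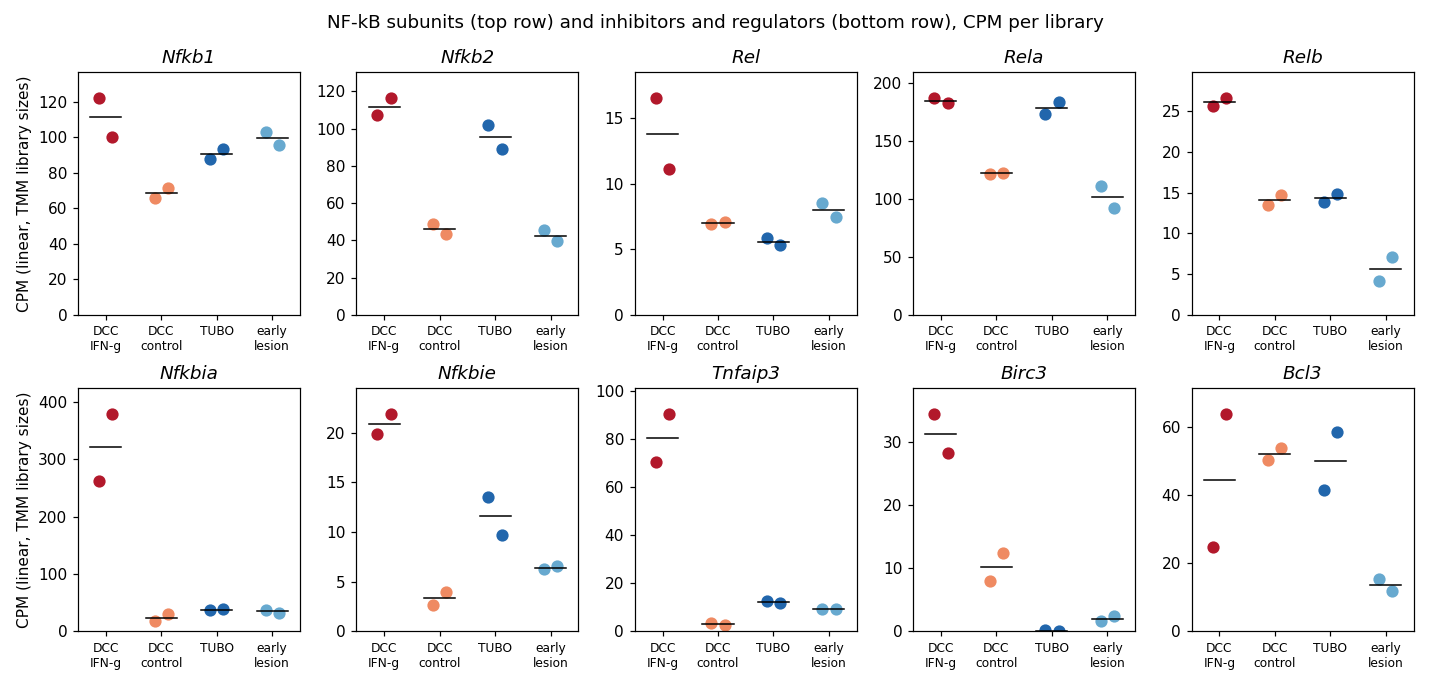
Level of each of the 10 NF-kB genes in every library, in CPM on a linear axis from 0 that is scaled for each gene. Each library is 1 point, with the groups DCC IFN-gamma, DCC control, TUBO and early lesion from left to right. The inhibitors Nfkbia, Nfkbie and Tnfaip3 stand apart in DCC IFN-gamma, and Birc3 is at or near 0 in TUBO.

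Tnfaip3 encodes A20, an enzyme that edits ubiquitin chains and shuts off signalling upstream of IKK. The gene lies at chr10:19000910-19015657 on the minus strand (GRCm38, GENCODE M21). It had 70.6 and 90.4 CPM in DCC IFN-gamma, against 3.41 and 2.65 CPM in DCC control. It rose 26.7-fold, a log2 fold change of 4.74 with a standard error (SE) of 0.24 and an adjusted p of 1.56e-06. The treated libraries lay far above all others, since the highest untreated library, one of TUBO, had 12.6 CPM.

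Nfkbia encodes IkB-alpha, the inhibitor that NF-kB itself resupplies after each activation. The gene lies at chr12:55489410-55492647, minus strand. Its levels were 263 and 379 CPM in DCC IFN-gamma and 18.2 and 29.1 CPM in DCC control. The rise was 13.5-fold (log2 3.76, SE 0.27, adjusted p = 1.7e-05). No untreated library of any group reached above 38.4 CPM.

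Nfkbie encodes IkB-epsilon, a related inhibitor, at chr17:45555703-45563169 on the plus strand. It had 19.9 and 21.9 CPM in DCC IFN-gamma, and 2.68 and 3.92 CPM in DCC control. It rose 6.28-fold (log2 2.65, SE 0.33, adjusted p = 0.000374). TUBO came closest among the untreated groups, at 13.5 and 9.69 CPM. All 3 inhibitors kept their calls with each library left out in turn, and the largest adjusted p among those fits was 0.00409, for Nfkbie.

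**Figure D2:**
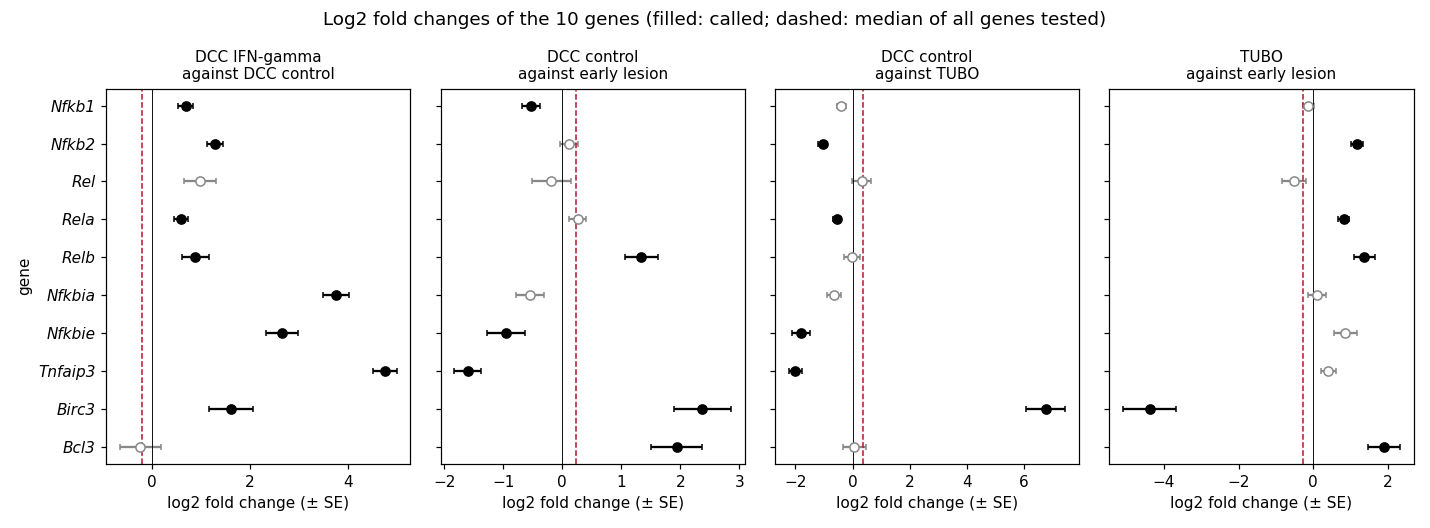
Log2 fold changes of the 10 NF-kB genes in the 4 comparisons, with bars of 1 SE, filled where the adjusted p was under 0.05. In DCC IFN-gamma over DCC control the points run from -0.24 for Bcl3 to 4.74 for Tnfaip3, and in DCC control over TUBO the point for Birc3 stands far to the right at 6.75.

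The DNA before the start sites of these inhibitors is shown because NF-kB is known to act back on them there. RefSeq promoter windows on GRCm38.p6, from 250 bases before the start to 50 after it, were found for 8 of the 10 genes, in 11 windows in all, and Nfkb1 and Relb had no entry. The kB consensus, the sequence that NF-kB dimers bind, was searched on both strands. It occurred in 8 of the 11 windows, which belong to 6 genes (Nfkb2, Rel, Nfkbia, Nfkbie, Tnfaip3 and Bcl3), and in 8.46% of all 32817 windows. The 150 bases before the start are printed for 6 genes in the direction of transcription, with kB matches in capitals. Tnfaip3 has a match ending 3 bases before its start, Nfkbia one ending 20 bases before, and Nfkb2 a pair that overlaps and another that ends 2 bases before, while Rela is shown as a subunit gene with no match.
Tnfaip3, chr10:19015411-19015560, minus strand: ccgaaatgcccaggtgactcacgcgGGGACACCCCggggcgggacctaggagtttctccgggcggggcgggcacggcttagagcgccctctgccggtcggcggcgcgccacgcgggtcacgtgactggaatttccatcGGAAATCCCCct
Nfkbia, chr12:55492648-55492797, minus strand: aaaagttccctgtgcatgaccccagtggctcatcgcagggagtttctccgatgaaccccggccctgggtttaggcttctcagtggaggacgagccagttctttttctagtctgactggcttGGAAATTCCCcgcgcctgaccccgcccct
Nfkbie, chr17:45555550-45555699, plus strand: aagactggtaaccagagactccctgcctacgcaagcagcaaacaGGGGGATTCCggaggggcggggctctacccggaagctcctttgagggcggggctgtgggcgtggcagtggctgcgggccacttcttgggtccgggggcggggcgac
Nfkb2, chr19:46304587-46304736, plus strand: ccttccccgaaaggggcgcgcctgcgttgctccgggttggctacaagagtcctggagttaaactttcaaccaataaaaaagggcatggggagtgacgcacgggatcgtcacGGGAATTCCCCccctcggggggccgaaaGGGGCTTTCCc
Rel, chr11:23770970-23771119, minus strand: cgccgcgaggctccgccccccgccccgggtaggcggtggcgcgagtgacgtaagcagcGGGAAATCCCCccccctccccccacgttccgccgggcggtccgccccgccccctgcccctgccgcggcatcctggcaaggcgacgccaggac
Rela, chr19:5637391-5637540, plus strand: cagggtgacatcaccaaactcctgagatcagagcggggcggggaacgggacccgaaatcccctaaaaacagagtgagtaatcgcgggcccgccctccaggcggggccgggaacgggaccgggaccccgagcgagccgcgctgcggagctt

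Interferon-response elements were searched in the same 11 windows. Their matches there lay near the shares over all windows and so say nothing particular about these genes. The GAS element, TTCNNNGAA, named for gene activation by IFN-gamma, occurred in 8.29% of all windows and in 1 window of these genes, that of Nfkb2. The ISRE core, TTTCNNTTTC, found at many interferon-induced genes, occurred in 3.43% of all windows and in none of the 11. Overlapping matches on either strand were counted apart, and windows 2 and 3 of Nfkb2 share 1 site. A match here is a description of the letters, and sites farther from the start lie outside these windows.

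**Figure D3:**
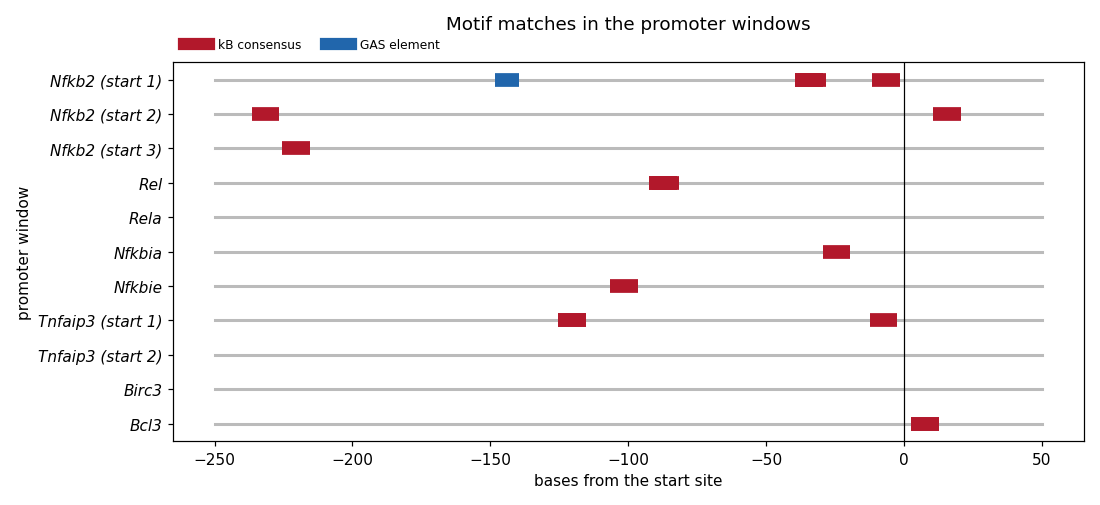
Position of each kB and GAS match in the 11 RefSeq promoter windows of 8 NF-kB genes, in bases from the start site. The kB matches of Tnfaip3, Nfkbia and Nfkb2 include sites within 40 bases before the start, and the windows of Rela and Birc3 hold none.

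Among the subunits, Nfkb2 rose most in DCC IFN-gamma over DCC control. This gene encodes p100, the precursor of the non-canonical subunit p52, at chr19:46304320-46312385 on the plus strand. It had 107 and 117 CPM in DCC IFN-gamma, against 48.9 and 43.3 CPM in DCC control, a 2.43-fold rise (log2 1.28, SE 0.16, adjusted p = 0.00037). The treated libraries exceeded every untreated one, although TUBO came near at 102 and 89.1 CPM. Exons of Nfkb2 share 531 bases with AC114539.1 and 299 with Psd on the opposite strand, and without a stated strand setting their reads cannot be told apart.

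Nfkb1 encodes p105, the precursor of the canonical subunit p50. It had 122 and 100.03 CPM in DCC IFN-gamma and 66.0 and 71.4 CPM in DCC control, a 1.62-fold rise (log2 0.69, SE 0.15, adjusted p = 0.0098). Rela, the gene of the transactivating subunit p65, had 187 and 183 CPM in DCC IFN-gamma, against 122 and 123 CPM in DCC control, and rose 1.52-fold (log2 0.60, SE 0.15, adjusted p = 0.0151). For both genes the treated libraries lay above the control libraries, and 1 of them fell within the range of the other untreated groups, in which early lesion reached 103 CPM of Nfkb1 and TUBO reached 184 CPM of Rela. Relb, the partner of p52, had 25.6 and 26.6 CPM in DCC IFN-gamma and 13.5 and 14.7 CPM in DCC control (1.85-fold, log2 0.89, SE 0.27, adjusted p = 0.0434). Rel, which encodes c-Rel, a subunit best known from lymphocytes, had 16.5 and 11.1 CPM in DCC IFN-gamma, against 6.94 and 7.05 CPM in DCC control. Its log2 fold change of 0.98 (SE 0.33) did not pass the test (adjusted p = 0.0598), while DESeq2 called it (adjusted p = 0.0435) and leaving out DCC IFN-gamma replicate 2 gave an adjusted p of 0.0268.

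Of these, Nfkb1 lies at chr3:135584655-135691547 (minus strand), Rela at chr19:5637483-5648130 (plus), Relb at chr7:19606217-19629438 (minus) and Rel at chr11:23736847-23770970 (minus). The calls of Nfkb1, Rela and Relb were lost in some fits, that of Nfkb2 in none. Without DCC control replicate 1 the adjusted p was 0.0852 for Nfkb1, 0.0986 for Rela and 0.181 for Relb, and without DCC control replicate 2 it was 0.0818 for Rela and 0.111 for Relb. Relb also lost its call without DCC IFN-gamma replicate 1 (0.0648), DCC IFN-gamma replicate 2 (0.0561) or TUBO replicate 2 (0.0562), with log2 fold changes between 0.69 and 0.95 over all alternatives. Scaling by upper quartile factors moved the median log2 fold change of all genes to -0.40, against -0.20 in the TMM fit. Relative to that shift Rela, at 0.40, and Relb, at 0.69, still stood above the median, with adjusted p of 0.0533 and 0.118.

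Of the regulators, Birc3 rose with IFN-gamma and Bcl3 did not pass the test. Birc3 (chr9:7848699-7873186, minus strand) encodes cIAP2, a ubiquitin ligase that acts downstream of TNF receptors and is itself a target of NF-kB. It had 34.4 and 28.2 CPM in DCC IFN-gamma, against 7.97 and 12.4 CPM in DCC control, and rose 3.06-fold (log2 1.62, SE 0.45, adjusted p = 0.0302). Leaving out either DCC control library ended the call (adjusted p of 0.18 for replicate 1 and 0.0507 for replicate 2), as did leaving out the first DCC IFN-gamma library (0.112) and scaling by upper quartile factors (0.0553). The neighbouring paralogue Birc2 had 14.5 and 14.8 CPM in DCC IFN-gamma and 22.1 and 17.1 CPM in DCC control, and did not pass the test. Bcl3 (chr7:19808462-19822770, minus strand), an atypical IkB protein that works with p50 and p52 in the nucleus, had 24.9 and 63.9 CPM in DCC IFN-gamma and 50.5 and 54.0 CPM in DCC control. The treated libraries lay on both sides of the controls, and the difference did not pass the test (log2 -0.24, SE 0.41, adjusted p = 0.706). Its direction rested on the 2 treated libraries, being -1.03 without DCC IFN-gamma replicate 2 (adjusted p = 0.00409) and 0.29 without DCC IFN-gamma replicate 1 (0.449). Bcl3 shares 161 exonic bases with Gm16175 on the opposite strand.

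Markers of other cell types moved with the treatment, in a comparison where 12.6% of all genes tested rose and 8.83% fell. The summed level of 16 macrophage and monocyte markers was 1211 and 1622 CPM in DCC IFN-gamma, against 137 and 139 CPM in DCC control, and 12 of the 16 rose while 0 fell by edgeR's test, 13 and 0 at an unadjusted p under 0.05, and 9 and 0 by DESeq2. Csf1r, the receptor that defines macrophages, had 193 and 147 CPM in DCC IFN-gamma and 18.5 and 16.9 CPM in DCC control. The 9 pan-leukocyte markers summed to 566 and 650 CPM in DCC IFN-gamma and to 66.9 and 73.7 CPM in DCC control, and 6 rose. Of 15 epithelial markers tested 8 fell, from the low level given above. The 13 fibroblast and stromal markers went down in sum, to 767 and 1225 CPM in DCC IFN-gamma, against 7590 and 8779 CPM in DCC control, with 7 of the 12 tested lower and 2 higher. Their part in the changes of the NF-kB genes was not tested.

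Per kilobase of exon, which allows levels of different genes to be set side by side, the order of the genes changed with treatment. In DCC IFN-gamma Nfkbia was highest, at 163 and 236 CPM per kb, above Rela at 59.5 and 61.0. Nfkb2, Bcl3, Tnfaip3 and Nfkb1 followed, in the order of their means, 24.4, 17.9, 11.1 and 9.21. Bcl3 spread over 10.06 to 25.8 CPM per kb and overlapped Nfkb2, Tnfaip3 and Nfkb1, and the libraries of Tnfaip3 and Nfkb1 overlapped as well. Nfkbie, Relb and Birc3 came next with means of 6.86, 6.72 and 6.25 and overlapping libraries, and Rel was lowest at 1.85 CPM per kb. In DCC control Rela led with a mean of 39.7 CPM per kb, ahead of Bcl3 (21.1), Nfkbia (14.7), Nfkb2 (10.1), Nfkb1 (5.70), Relb (3.63) and Birc3 (2.03). Nfkbie (1.08) and Rel (0.937) overlapped, and Tnfaip3 stood last at 0.42 CPM per kb. In TUBO and early lesion Rela also led, with means of 58.1 and 33.2 CPM per kb, and Nfkbia came next with 23.2 and 21.5. Birc3 was lowest in both, with a mean of 0.0172 CPM per kb in TUBO and 0.396 in early lesion. These levels divide by the joint length of all annotated exons of a gene, which can exceed the transcript made.

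**Figure D4:**
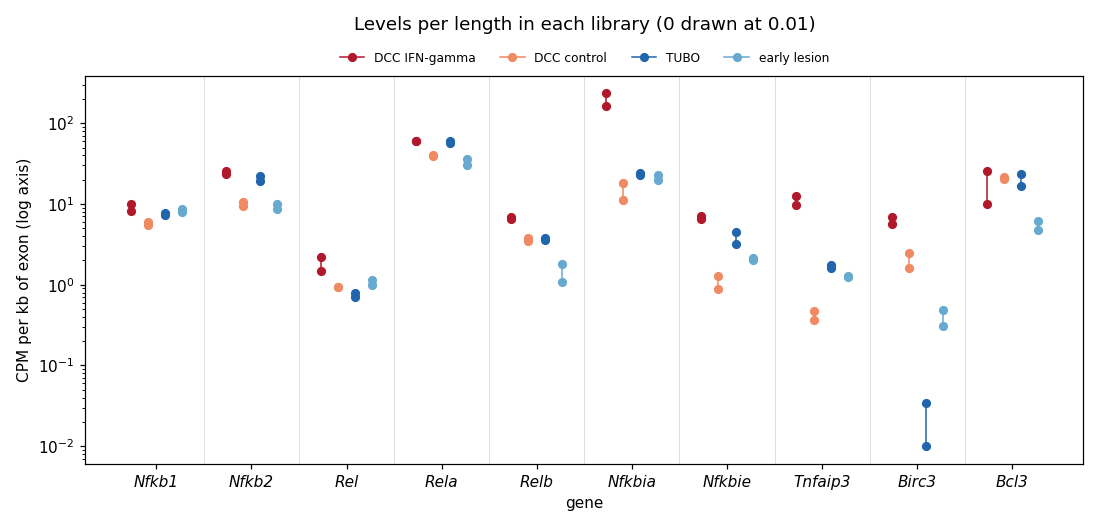
Level of the 10 NF-kB genes in CPM per kilobase of exon on a logarithmic axis, by group, with 1 point per library. Nfkbia lies above Rela in both DCC IFN-gamma libraries and below it in the other 6, and Tnfaip3 is the lowest gene in DCC control.

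The balance of inhibitor to subunit RNA can be read from ratios of counts within a library. There were 1.40 and 2.08 counts of Nfkbia for each count of Rela in DCC IFN-gamma, against 0.15 and 0.238 in DCC control, 0.21 and 0.209 in TUBO, and 0.333 and 0.349 in early lesion. For Tnfaip3 the ratio to Rela was 0.377 and 0.495 in DCC IFN-gamma, against 0.0281 and 0.0216 in DCC control. The treated libraries lay apart from all untreated ones in both ratios. The summed level of the 5 subunit genes moved far less, at 459 and 437 CPM in DCC IFN-gamma, 257 and 259 CPM in DCC control, 382 and 387 CPM in TUBO, and 273 and 242 CPM in early lesion. Nfkb2 had 0.879 and 1.17 counts per count of Nfkb1 in DCC IFN-gamma, 0.742 and 0.606 in DCC control, 1.16 and 0.953 in TUBO, and 0.443 and 0.413 in early lesion. The lowest values of that ratio were those of early lesion. No test was made on these ratios.

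Without treatment, some NF-kB genes were called higher and others lower in DCC control than in early lesion or TUBO. A gene that was not called may still differ. In DCC control over early lesion, 3 genes rose (Birc3, Bcl3 and Relb) and 3 fell (Tnfaip3, Nfkbie and Nfkb1), where 19.1% of all genes rose and 18.7% fell. The median log2 fold change was -0.04 over the 10 genes and 0.23 over all genes. In DCC control over TUBO, 1 rose (Birc3) and 4 fell (Tnfaip3, Nfkbie, Nfkb2 and Rela), where 22.1% of all genes rose and 19.9% fell, and the medians were -0.47 over the 10 genes and 0.37 over all genes. These comparisons share the DCC control libraries with each other and with the IFN-gamma comparison. The cell types differ in more than these genes: fibroblast and stromal markers summed to 7590 to 8779 CPM in DCC control, against 16.5 to 22.6 CPM in TUBO and 29.7 to 34.0 CPM in early lesion, and epithelial markers ran the opposite way as given above. Of 16 macrophage and monocyte markers, 11 were higher and 1 lower in DCC control over TUBO, and 10 were higher and 1 lower over early lesion. Their sums, 137 and 139 CPM in DCC control, 80.3 to 113 CPM in TUBO and 106 to 115 CPM in early lesion, were carried by Cd14 in TUBO (73.9 and 106.6 CPM) and in early lesion (94.1 and 98.1 CPM), against 12.3 and 11.3 CPM in DCC control. Csf1r had 18.5 and 16.9 CPM in DCC control, 0.0345 and 0 CPM in TUBO, and 0 and 0.624 CPM in early lesion. The part of cell type in these differences cannot be told apart from that of the group.

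The inhibitors Tnfaip3 and Nfkbie were lowest in DCC control. Tnfaip3 had 3.41 and 2.65 CPM in DCC control, against 12.6 and 11.5 CPM in TUBO and 9.15 and 9.10 CPM in early lesion. It fell by 2.004 on the log2 scale against TUBO (SE 0.23, adjusted p = 5.58e-05) and by 1.60 against early lesion (SE 0.23, adjusted p = 0.000286), and both calls held under every alternative run. Nfkbie had 2.68 and 3.92 CPM in DCC control, 13.5 and 9.69 CPM in TUBO, and 6.23 and 6.60 CPM in early lesion. It fell by 1.80 on the log2 scale against TUBO (SE 0.32, adjusted p = 0.00125). Against early lesion it fell by 0.95 (SE 0.32, adjusted p = 0.0402), a call lost without DCC control replicate 1 (0.209), early lesion replicate 1 (0.119) or early lesion replicate 2 (0.129), under upper quartile factors (0.0545) and with only the groups compared in the fit (0.0868). Nfkbia had 18.2 and 29.1 CPM in DCC control, 36.3 and 38.4 CPM in TUBO, and 37.1 and 32.3 CPM in early lesion. Its DCC control libraries lay below the others without passing the test, with log2 differences of -0.65 against TUBO (adjusted p = 0.0553) and -0.55 against early lesion (0.113). Those differences passed in some alternatives. Against TUBO the adjusted p was 0.00524 with no filter on low counts and 0.0488 by DESeq2, and against early lesion it was 0.0265 with no filter. Without DCC control replicate 2 the differences were -1.04 (adjusted p = 0.00648) and -0.93 (0.0134).

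Subunit levels split the 3 untreated groups in more than one way. Nfkb2 had 48.9 and 43.3 CPM in DCC control, 102 and 89.1 CPM in TUBO, and 45.7 and 39.4 CPM in early lesion, so that TUBO stood apart. It fell by 1.05 on the log2 scale in DCC control against TUBO (SE 0.16, adjusted p = 0.000409), and it rose 2.24-fold in TUBO over early lesion (log2 1.17, SE 0.16, adjusted p = 0.000553). Rela showed the same order of groups at a smaller size, with 122 and 123 CPM in DCC control, 173 and 184 CPM in TUBO, and 111 and 92.5 CPM in early lesion. Its fall of 0.55 on the log2 scale in DCC control against TUBO (SE 0.15, adjusted p = 0.0114) was lost without either DCC control library (0.0701 without replicate 1 and 0.0649 without replicate 2) or either TUBO library (0.075 without replicate 1 and 0.0742 without replicate 2). Its rise in TUBO over early lesion (log2 0.81, SE 0.15, adjusted p = 0.0027) held with each library left out in turn.

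Relb was low in early lesion and Nfkb1 low in DCC control. Relb had 13.5 and 14.7 CPM in DCC control, 13.9 and 14.8 CPM in TUBO, and 4.16 and 7.05 CPM in early lesion. It rose 2.53-fold in DCC control over early lesion (log2 1.34, SE 0.28, adjusted p = 0.00345) and 2.56-fold in TUBO over early lesion (log2 1.36, SE 0.28, adjusted p = 0.00594), the second call being lost without early lesion replicate 1 (0.059). In DCC control and TUBO its libraries overlapped, at a log2 difference of -0.02 (adjusted p = 0.96) that turned to 0.04 under RLE factors and 0.09 under upper quartile factors. Nfkb1 had 66.0 and 71.4 CPM in DCC control, 87.7 and 93.5 CPM in TUBO, and 103 and 95.5 CPM in early lesion. It fell by 0.53 on the log2 scale against early lesion (SE 0.15, adjusted p = 0.0192), and without any 1 of the 4 libraries compared this call was lost (adjusted p 0.0544 to 0.139). Against TUBO the difference of -0.40 did not pass (adjusted p = 0.06), but it did without DCC IFN-gamma replicate 1 or 2 (0.0263 and 0.0264). Rel was between 5.30 and 8.49 CPM in all 6 untreated libraries and passed no test among these groups.

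Birc3 was highest in DCC control among the untreated groups, and Bcl3 was low in early lesion. Birc3 had 7.97 and 12.4 CPM in DCC control, 0.172 and 0 CPM in TUBO, and 1.56 and 2.41 CPM in early lesion. In counts this was 131 and 313 reads in DCC control, 5 and 0 in TUBO, and 49 and 54 in early lesion. The summed level was 118-fold higher in DCC control than in TUBO (95% exact counting interval 50.03 to 364, which covers counting error only; fitted log2 fold change 6.75, adjusted p = 2.82e-05). It rose 5.18-fold in DCC control over early lesion (log2 2.37, SE 0.48, adjusted p = 0.00297). In TUBO against early lesion it fell, the level in early lesion being 21.1-fold that in TUBO (8.76 to 66.4; fitted log2 -4.38, adjusted p = 0.00157). Both DCC control calls held under every alternative run, but the size against TUBO rests on few reads. Without TUBO replicate 1, which leaves a library at 0, the fitted log2 values were 10.97 for DCC control over TUBO and -8.64 for TUBO over early lesion, and depend on the prior count. Without TUBO replicate 2 they were 5.85 and -3.47. Birc2 stayed between 12.6 and 22.1 CPM in the same 6 libraries and passed no test. Bcl3 had 50.5 and 54.0 CPM in DCC control, 41.6 and 58.6 CPM in TUBO, and 15.4 and 11.8 CPM in early lesion. It rose 3.84-fold in DCC control over early lesion (log2 1.94, SE 0.43, adjusted p = 0.00989), a call lost without DCC control replicate 2 (0.087) or early lesion replicate 2 (0.0522).

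In TUBO over early lesion, 4 of the 10 genes rose (Nfkb2, Rela, Relb and Bcl3) and 1 fell (Birc3), where 11.4% of all genes rose and 12.7% fell. The median log2 fold change was 0.61 over the 10 genes and -0.27 over all genes. Bcl3 rose 3.68-fold (log2 1.88, SE 0.43, adjusted p = 0.0186), and its call was lost without DCC control replicate 2 (0.0709), early lesion replicate 1 (0.0571), early lesion replicate 2 (0.0968) or TUBO replicate 2 (0.116). Without early lesion replicate 1 the genes called higher were 2 in place of 4. The inhibitors did not pass, at log2 differences of 0.86 for Nfkbie (adjusted p = 0.0734), 0.40 for Tnfaip3 (0.192) and 0.11 for Nfkbia (0.77). This comparison shares its TUBO and early lesion libraries with those above.

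Other genes of the pathway were described by role, against 12.6% of all genes higher, 8.83% lower and a median log2 fold change of -0.20 in DCC IFN-gamma over DCC control. Among 13 IKK subunits and upstream kinases, 4 rose with IFN-gamma and 0 fell, with a median log2 fold change of 0.56. The catalytic IKK genes were not among them, since Ikbkb had 41.4 and 34.2 CPM in DCC IFN-gamma and 35.7 and 37.2 CPM in DCC control (adjusted p = 0.848), and Chuk had 46.7 and 42.6 CPM against 29.5 and 29.98 CPM (adjusted p = 0.0507). Ripk2, the kinase of NOD receptors, rose 2.08-fold to 119 and 147 CPM in DCC IFN-gamma, against 60.1 and 67.5 CPM in DCC control (adjusted p = 0.00373). Map3k14, which encodes the NIK kinase of the non-canonical pathway, rose 2.05-fold to 30.2 and 24.6 CPM, against 12.4 and 14.3 CPM in DCC control (adjusted p = 0.0134), and lost its call without DCC control replicate 1 (0.0931) or DCC IFN-gamma replicate 1 (0.0648). Of 20 adaptors and ubiquitin enzymes, 6 rose and 0 fell (median log2 0.43). Irak2, a kinase-like adaptor of interleukin 1 and Toll-like receptors, rose 3.82-fold (adjusted p = 0.000217), Nod1, a sensor of bacterial peptidoglycan, 5.11-fold (0.00156), and Rnf31, the catalytic subunit of the linear ubiquitin ligase, 3.15-fold (0.000441).

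Of 16 receptors upstream of NF-kB, 8 rose and 1 fell with IFN-gamma, where 12.6% of all genes rose and 8.83% fell. Their median log2 fold change was 1.38. Il1rap, the shared co-receptor of the interleukin 1 family, fell to 44.7 and 47.1 CPM in DCC IFN-gamma, against 170.0 and 164 CPM in DCC control (log2 -1.86, adjusted p = 2.73e-05). Tlr3, the receptor of double-stranded RNA, rose 9.02-fold to 95.6 and 34.6 CPM, against 7.67 and 6.81 CPM in DCC control (adjusted p = 0.00554), a call lost without DCC control replicate 1 (0.0571) or replicate 2 (0.104). Of the 12 ligand genes listed, 9 could be tested and 1 rose, which lies near the share over all genes and says nothing particular about ligands. That gene was Tnf, with 18.5 and 18.4 CPM in DCC IFN-gamma and 1.10 and 1.90 CPM in DCC control (adjusted p = 0.0317). The call of Tnf was lost without either DCC control library (0.193 and 0.155) or either DCC IFN-gamma library (0.0937 and 0.0718). Of 17 other IkB proteins and negative regulators, 7 rose and 0 fell (median log2 0.64), among them Nfkbib, the gene of IkB-beta, with 55.0 and 60.4 CPM in DCC IFN-gamma and 29.3 and 33.0 CPM in DCC control (1.85-fold, adjusted p = 0.00596, lost without DCC control replicate 1 at 0.0589).

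NF-kB target genes outside the 10 moved in a similar direction. Of 31 tested, 17 rose and 0 fell, where 12.6% of all genes rose and 8.83% fell. Their median log2 fold change was 2.04, where the median over all genes was -0.20. Icam1, an adhesion molecule for leukocytes, had 142 and 149 CPM in DCC IFN-gamma, against 2.92 and 4.16 CPM in DCC control (40.6-fold, adjusted p = 4.4e-06). Ccl2, a monocyte-attracting chemokine, had 256 and 338 CPM in DCC IFN-gamma, against 7.49 and 3.41 CPM in DCC control (55.7-fold, adjusted p = 0.00145). In the kinase, adaptor, ligand, IkB and target lists, 0 genes were lower at an unadjusted p under 0.05 and 0 by DESeq2 as well. Some of these targets, such as Icam1 and Ccl2, are also known to answer to interferon signalling. Macrophage and monocyte markers rose in the same comparison, and their part in the changes of the targets was not tested.

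Among the untreated groups the pathway lists were split. Of all genes, 19.1% were higher and 18.7% lower in DCC control over early lesion, and 22.1% and 19.9% over TUBO. In DCC control over early lesion, 11 of the 31 targets rose and 12 fell, and over TUBO 12 rose and 10 fell. Ptgs2, the inducible cyclooxygenase, had 1047 and 948 CPM in DCC control, against 0.138 and 0.801 CPM in TUBO and 1.59 and 2.23 CPM in early lesion (log2 11.1 over TUBO, adjusted p = 0.000139, and 9.04 over early lesion, adjusted p = 0.000227). Lif, a cytokine of the interleukin 6 family, ran the other way, with 2.01 and 2.50 CPM in DCC control, 42.8 and 44.4 CPM in TUBO, and 54.9 and 54.1 CPM in early lesion (log2 -4.26, adjusted p = 7.07e-05, and log2 -4.58, adjusted p = 5.22e-05). Of the 16 receptors, 3 were higher and 4 lower over early lesion, and 5 were higher and 5 lower over TUBO. The counts over early lesion lie near the shares over all genes and say nothing particular about receptors. Tnfrsf11a, the gene of RANK, had 3.77 and 0.673 CPM in DCC control, against 31.0 and 29.9 CPM in TUBO and 49.5 and 49.0 CPM in early lesion (log2 -3.86, adjusted p = 0.0027, and log2 -4.55, adjusted p = 0.00143). Il1r1, the signalling receptor of interleukin 1, had 53.4 and 48.8 CPM in DCC control, against 0.517 and 0 CPM in TUBO and 1.40 and 1.65 CPM in early lesion (log2 5.07 over early lesion, adjusted p = 0.000871). Ripk2 had 60.1 and 67.5 CPM in DCC control, against 18.8 and 13.3 CPM in TUBO and 9.15 and 9.63 CPM in early lesion, and it was called in both comparisons (3.98-fold, adjusted p = 2.58e-05, and 6.79-fold, adjusted p = 3.43e-06). Peli1, a ubiquitin ligase placed here in the list of IkB and negative regulators, had 19.8 CPM in both DCC control libraries. Its levels were 119 and 95.9 CPM in TUBO and 66.7 and 68.2 CPM in early lesion (log2 -2.44 for DCC control over TUBO, adjusted p = 4.34e-06, and log2 -1.77 over early lesion, adjusted p = 4.37e-05).

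The remaining lists are given by their counts, many of which lie near the shares over all genes just given and then say nothing about the list. In DCC control over early lesion, the kinases had 6 of 13 higher and 2 lower, the adaptors 3 of 20 higher and 3 lower, and the IkB and negative regulators 2 of 17 higher and 5 lower. Of the 9 ligands tested, 3 rose over early lesion and 2 over TUBO, and 0 fell in either comparison, also at an unadjusted p under 0.05 and by DESeq2. Over TUBO, the kinases had 4 higher and 1 lower, the adaptors 4 and 6, and the IkB and negative regulators 2 and 4. In TUBO over early lesion, where 11.4% of all genes were higher and 12.7% lower, 4 of the 31 targets rose and 7 fell, with 1 and 2 of the kinases, 4 and 1 of the adaptors, 4 and 3 of the receptors, 1 and 2 of the ligands, and 1 and 2 of the IkB and negative regulators. Ltbr, the lymphotoxin-beta receptor that feeds the non-canonical pathway, rose 2.99-fold to 86.9 and 101.4 CPM in TUBO, against 32.4 and 30.6 CPM in early lesion (adjusted p = 0.000153). Tnfrsf1b, the second TNF receptor, rose 2.40-fold in the same comparison, with 66.7 and 66.9 CPM in TUBO and 26.5 and 29.3 CPM in early lesion (adjusted p = 0.000407).

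The genes whose levels ran most closely with those of the NF-kB genes over the 8 libraries were Nr1d1, Por, Gna13, Upp1 and Psmb10. Their Pearson correlations with the mean standardised level of the 10 genes were 0.995, 0.994, 0.992, 0.99 and 0.988 among 9658 genes with a mean of at least 10 CPM. The libraries fall into 4 groups of pairs and DCC IFN-gamma is high for all 5, so these values describe a common pattern over 4 conditions, with no test. Nr1d1, a nuclear receptor of the circadian clock, had 499.9 and 424 CPM in DCC IFN-gamma, 42.9 and 49.1 CPM in DCC control, 104 and 118 CPM in TUBO, and 41.6 and 42.4 CPM in early lesion. Psmb10, an interferon-inducible subunit of the immunoproteasome, had 150.3 and 168 CPM in DCC IFN-gamma, 7.97 and 12.04 CPM in DCC control, 14.9 and 16.2 CPM in TUBO, and 8.39 and 7.81 CPM in early lesion. Within the 10 genes, the correlation with their own mean was highest for Nfkbia (0.951) and Tnfaip3 (0.922) and lowest for Birc3 (0.515) and Bcl3 (0.321).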

How the data were processed

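The authors deposited raw counts per gene symbol in 1 table for all 8 libraries. TopHat, HTSeq 0.6.1 and the mm10 build are named per the submitters' processing notes, and RNeasy and Nugen Ovation kits per the labels' protocols. Neither the annotation nor the strand setting nor a filter on genes is stated in those sources. The 5 closing lines of reads outside genes were left out (35.2% to 63.7% of reads counted per library). CPM values used library sizes summed over the genes that passed the filter and scaled by TMM factors. Before the filter and scaling, gene counts ran from 15432210 to 30168475 per library.

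Tests used edgeR's quasi-likelihood test (edgeR 4.0.16, R 4.3.3, limma 3.58.1, robust) in 1 model of 4 group means with 4 residual degrees of freedom, after filterByExpr (minimum count 10) left 17069 genes, with Benjamini-Hochberg adjustment over these and a threshold of 0.05. The common biological coefficient of variation was 0.4158. Each SE was obtained by dividing a log2 fold change by the root of its F statistic. Counts differed between replicates of every group by more than sampling noise, and most in DCC IFN-gamma. The chi-square per degree of freedom was 160.5 in DCC IFN-gamma, 17.4 in DCC control, 18.5 in early lesion and 33.5 in TUBO. The script was tested on simulated data. Counting intervals and the floor of 3 counts leave out other error, because PCR reads with no molecular identifiers are not separate molecules.

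The 10 genes, the 7 pathway lists and 8 cell type lists were chosen with earlier results of these data known. Of the pathway lists 1 is not reported here. Trac and Ly6g were not found in the table, and Otulin and Adgre1 were matched under older symbols. From each list the rule takes the 3 largest calls in the commoner direction and the 2 largest in the other, whose libraries do not overlap and whose mean is at least 1 CPM in the higher group. Of these, those described were chosen after their values were seen, as were Ikbkb, Chuk, Birc2 and the markers named. Likeness used log2(CPM + 0.5). Alternatives were RLE and upper quartile factors, other filters, DESeq2 1.42.0, only the groups compared, a replicate block, each library left out, and the 2 libraries with most reads outside genes both left out. Replicate numbers share no animal, batch or day in the labels and were not treated as pairs.

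Among other cell types, lymphoid markers summed to at most 3.04 CPM, erythroid and megakaryocyte markers to at most 6.70 CPM, and endothelial markers to at most 14.5 CPM in any library. Neutrophil and mast cell markers summed to at most 2.27 CPM in DCC IFN-gamma, 3.23 in DCC control, 99.3 in TUBO and 209.5 in early lesion, nearly all of it Kit (91.6 and 93.2 CPM in TUBO, 172 and 171 CPM in early lesion) and Ltf (4.62 and 5.38, 33.6 and 37.6 CPM).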

Additional observations from a re-analysis of the deposited data

How the results depend on the processing

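In DCC IFN-gamma over DCC control, the calls of Tnfaip3, Nfkbia, Nfkbie and Nfkb2 held in all 16 alternatives, those of Nfkb1 in 14, Rela in 12, Birc3 in 11 and Relb in 7. The 8 genes called higher became 5 under upper quartile factors and 4 with DCC control replicate 1 and early lesion replicate 2 both left out. With that pair left out, genes called lower in DCC control over early lesion were 1, against 3, and genes called higher in TUBO over early lesion 2, against 4. All genes called were then 1654, against 3656, in the IFN-gamma comparison, 4112, against 6441, in DCC control over early lesion, and 1944, against 4117, in TUBO over early lesion. Fewer libraries enter these fits. With only the groups compared in the fit, genes called lower in TUBO over early lesion became 0 (Birc3, adjusted p = 0.0602), with 1 at an unadjusted p under 0.05 and 1 by DESeq2 in the full set of libraries.

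With each library left out in turn, where a lone sample is assumed to vary like the other groups, NF-kB genes called higher ranged from 4 to 8 and lower from 0 to 1 with IFN-gamma, and all genes called from 2020 to 4128. The 4 and the 2020 came without DCC control replicate 1. In DCC control over early lesion the ranges were 2 to 3, 1 to 4, and 4780 to 6996, with 1 lower without DCC control replicate 1, early lesion replicate 1 or early lesion replicate 2. In DCC control over TUBO they were 1 to 1, 3 to 6, and 5481 to 7708. In TUBO over early lesion they were 2 to 4, 1 to 1, and 2391 to 5175, with 2 higher without early lesion replicate 1, 2391 genes without TUBO replicate 2 and 2476 without early lesion replicate 2.

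Differences near 0 changed sign. Relb in DCC control over TUBO (-0.02) was 0.0388 under RLE factors, 0.0872 under upper quartile factors, 0.0273 under the filter of 50 counts, 0.0382 by DESeq2, 0.0035 with only the groups compared and 0.0393 without the pair, and ran from -0.0871 to 0.0373 with 1 library left out. With 1 library left out, Bcl3 ran from -1.03 to 0.29 in the IFN-gamma comparison and from -0.10 to 0.33 in DCC control over TUBO. Nfkb2 was -0.0776 in DCC control over early lesion without the pair. The cause was not tested.

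A replicate block kept the side of the threshold for 38 of 40 results. Nfkbie in DCC control over early lesion had an adjusted p of 0.053 (log2 -0.95) and Nfkbia in DCC control over TUBO one of 0.0271 (log2 -0.68). Among the other genes described, Tnf lost its IFN-gamma call under the block (adjusted p = 0.0711). Correlations of same-numbered libraries' deviations over 17069 genes ran from -0.432 to 0.0957, so the numbers were not taken as pairs. With 2 libraries per group, a difference that missed the threshold was not detectable here, which does not show that it is absent.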
